A study of Mus musculus with 6 samples.

Results

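CD8 T cells are the killer branch of the T lymphocytes, and here they were a class of cells found inside a droplet RNA sequencing table of mouse lung. A barcode, the tag that stands for 1 droplet, was counted as a CD8 T cell by its UMIs. Cells were chosen by 3 measured values: at least 1 unique molecular identifier (UMI, the tag that lets each captured RNA molecule be counted once) of the CD3 chains Cd3d, Cd3e or Cd3g, at least 1 UMI of the CD8 chains Cd8a or Cd8b1, and 0 UMIs of Cd4, Foxp3 and Cd79a in sum. By this rule 426 of the 9994 barcodes that had 500 or more genes and no more than 10% mitochondrial UMIs were CD8 T cells, a share of 4.26% (95% Clopper-Pearson interval 3.87 to 4.68%, which covers counting error only). They made up 27.4% of the 1555 barcodes with a CD3 UMI (25.2 to 29.7%). The other 1129 barcodes with a CD3 UMI are called other T cells below, and 3406 barcodes with a UMI of the leukocyte gene Ptprc and none of CD3 are called other leukocytes.

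The study set out to divide lung mesenchymal cells into subtypes in normal and fibrotic lung. Its labels name 6 samples, all from SMA-GFP;Tbx4cre;RosaTdTomato mice, in which GFP reports smooth muscle actin and tdTomato marks cells in which the Tbx4 gene's Cre has been active. From mice given bleomycin, an injurious agent used to bring on lung fibrosis, at day 21 and from normal mice at day 0, 3 gates were sorted: SMA+Tm+, SMA-Tm+ and SMA-Tm-. Each gate and day has 1 sample, the age of the mice is not stated in the labels, and the sort was set to leave out cells with Epcam, CD31 or CD45, the last of which is the protein of Ptprc. CD8 T cells carry CD45, so these are cells that the gate was meant to leave out, and 353 of the 426 (82.9%) held a Ptprc UMI. Barcodes end in a suffix from 1 to 6 that is tied to no labelled sample here, so no cell was given a day or a gate, the table stands as 1 pooled sample, and no test and no p-value could be had.

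CD8 T cells recognise peptides shown on MHC class I molecules through a T cell receptor whose signal passes through the CD3 chains, with CD8 as the coreceptor. Naive cells, which have not met their antigen, circulate between blood and lymph nodes under the transcription factors Tcf7 and Lef1 and the homing receptor Ccr7. Cells that have responded turn on granzymes, perforin, chemokines such as Ccl5 and memory receptors, and some of them settle in the lung as tissue-resident memory cells.

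The genes used by the rule describe how firmly it was met. Cd8b1 (GRCm38 chr6:71322788-71337494, plus strand), the beta chain of the coreceptor, summed to 786 CPM (UMIs scaled to the group's total, in the usual CPM unit) in CD8 T cells, and Cd8a (chr6:71373427-71379173, plus strand), the alpha chain, to 314 CPM. Both chains were seen in 260 cells (61.0%), Cd8b1 alone in 140 (32.9%) and Cd8a alone in 26 (6.10%). Ccl5, which the rule did not use, was at 7695 CPM in the 26 cells with Cd8a alone, 2687 CPM in the 140 with Cd8b1 alone and 5455 CPM in the 260 with both chains. Lef1 was at 134 CPM in the 26 cells and 301 CPM in the 260, and Tcf7 at 324 CPM in the 26 cells and 244 CPM in the 260. The CD8 beta chain was thus found in most of the class.

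At the edge of the rule, 63 cells were members through 1 CD8 UMI and 28 through 1 CD3 UMI, with 12 in both sets, while 196 held 4 or more of each. Dapl1, a gene given as a marker of the class, was at 124 CPM in the 63 cells with 1 CD8 UMI and 209 CPM in the 363 cells with more. It was at 55.2 CPM in the 785 T cells just outside, which had a CD3 UMI and none of the 5 other genes of the rule. Free RNA in the droplets can give stray UMIs. A CD8 UMI was found in 7 of 1784 B cells (0.392%; median depth 2073 UMIs), 7 of 2554 fibroblasts (0.274%; 2935 UMIs) and 0 of 246 natural killer cells. Among all other leukocytes it was found in 33 of 3406 (0.969%; 3422 UMIs). The source of these UMIs was not tested. The 785 cells made up 69.5% of the other T cells, which also held 203 with Cd4 or Foxp3 and no CD8 UMI, 83 with Cd79a only, and 58 with a CD8 UMI that a Cd4, Foxp3 or Cd79a UMI set aside. A CD8 T cell whose CD8 RNA was not captured is counted among the 785, so the other T cells are a mixed group.

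**Figure D1:**
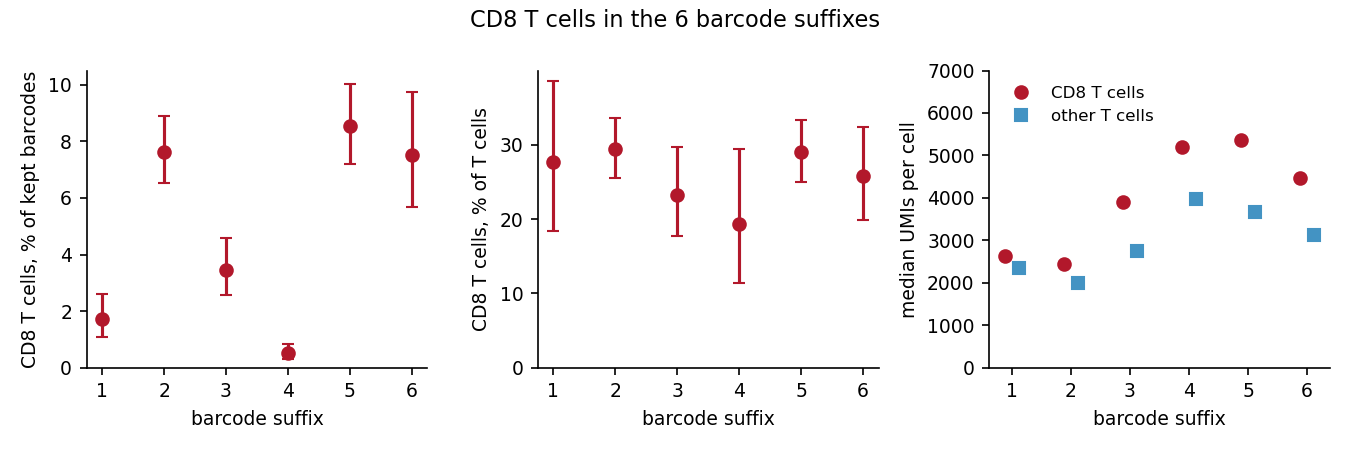
CD8 T cells by barcode suffix 1 to 6 as a percent of kept barcodes (left), as a percent of T cells (middle), with 95% Clopper-Pearson intervals as bars, and the median UMIs per cell of CD8 T cells beside those of other T cells (right). The share of kept barcodes runs between 0.529 and 8.53%, while the intervals of the share of T cells all overlap.

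CD8 T cells were found under every suffix: 23, 152, 48, 16, 135 and 52 cells for suffixes 1 to 6. Their share of kept barcodes was highest under suffix 5 at 8.53% and lowest under suffix 4 at 0.529%. Among T cells their share stayed between 19.3% (suffix 4) and 29.5% (suffix 2), and the 6 intervals overlapped. The cells had a median of 3455.5 UMIs and 1116.5 genes, against 2816 UMIs in other T cells, 3422 in other leukocytes and 2201.5 in natural killer cells. Depth differed along the suffixes too, with a median of 2447.5 UMIs per CD8 T cell under suffix 2 and 5362 under suffix 5. The suffixes also split by Xist, the RNA of the inactive X: it was seen in 0 CD8 T cells of suffixes 1 to 3, and in 16 of 16, 130 of 135 and 49 of 52 under suffixes 4, 5 and 6. Y-linked RNA was seen in 14, 78 and 24 cells under suffixes 1 to 3 and in 1 cell of the others.

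Of the given markers, Dapl1, Lef1 and Tcf7 were not part of the rule, and all 3 were at a higher level in CD8 T cells than in other T cells and other leukocytes. The markers were chosen with earlier results of these data known, so this is a description. In other T cells with a Cd4 or Foxp3 UMI and no Cd79a UMI, Tcf7 was at 242 CPM, against 246 CPM in CD8 T cells. There Lef1 was at 238 CPM, against 291 CPM in CD8 T cells, and Dapl1 at 73.9 CPM, against 199 CPM in CD8 T cells. Cells with markers of other types were few but heavy. In 19 CD8 T cells (4.46%) red cell, B cell, alveolar macrophage, neutrophil, fibroblast, endothelial or epithelial markers came to 1% or more of the UMIs, against 171 other T cells (15.1%). Summed neutrophil markers were at 744 CPM in CD8 T cells, 5090 CPM in other T cells and 976 CPM in other leukocytes. Summed alveolar macrophage markers were at 1291 CPM in CD8 T cells, 3167 CPM in other T cells and 13989 CPM in other leukocytes, and summed B cell markers at 1354 CPM in CD8 T cells, 2630 CPM in other T cells and 7145 CPM in other leukocytes. Fibroblast markers, those of the cells the sort was for, were at 21.7 CPM in CD8 T cells, 144 CPM in other T cells and 333 CPM in other leukocytes. The alveolar macrophage gene Lyz2 had a UMI in 31.5% of CD8 T cells, in 27.5% of B cells and in 36.4% of fibroblasts (median depths 3455.5, 2073 and 2935 UMIs). Its UMIs were unevenly spread in CD8 T cells: 1 cell held 373 of 1754 (21.3%) and 10 cells held 67.0%. All 4 red cell genes, all 6 neutrophil genes and 7 of 8 epithelial genes were above 0 in CD8 T cells, with Krt18 at 0.

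A pair of barcodes carried most of the red cell and neutrophil RNA found in CD8 T cells. A single cell of suffix 6 held 10164 haemoglobin UMIs of its 14100, which was 99.3% of all haemoglobin in CD8 T cells. A single cell of suffix 2 held 91.3% of all S100a8 and S100a9 UMIs in CD8 T cells (1172 of 1283), genes counted here as neutrophil markers. Haemoglobin genes head the list of differences through the first cell: Hbb-bs was at a log2 ratio of 5.96 against other T cells and at 0.03 without the cells at 1% or more of other-type markers. Over all barcodes, 55 sequences occurred under more than 1 suffix, and 10 CD8 T cells carried such a sequence.

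Against other T cells, 21 genes were 2-fold or more higher in CD8 T cells, 4 of them in the cytotoxic list and 2 in the naive list, and 153 were 2-fold or more lower, 4 of them in the memory, 6 in the helper and 4 in the immediate early list. The genes furthest down also held those of other cell types, such as Jchain, Sftpc, Sftpa1, Ebf1, S100a8 and S100a9. UMIs were summed over each group, scaled to CPM, and compared as a log2 ratio after adding 10 CPM to both sides. A gene counted as measured at 50 CPM or more in 1 of the 2 groups, so a gene that got in only through the group where it is high had to differ. Of 2561 measured genes, 21 (0.82%) were 2-fold or more higher in CD8 T cells and 153 (5.97%) were 2-fold or more lower. The median gene was lower by 0.28 on the log2 scale (-0.28), and list medians below are to be read beside it. Among the 21 were Gzmm, Ccl5, Dapl1, Klrd1, Cst7, Nkg7, Epsti1, Ly6c2 and Nsg2, along with 4 haemoglobin genes. The rest were 1700025G04Rik, 5730508B09Rik, Car2, Dnajc15, Gramd3, Gtf2i, Ms4a4c and Sidt1. Dnajc15, a mitochondrial co-chaperone, was at 270.0 CPM in CD8 T cells and 118 CPM in other T cells. Without the cells that held 1% or more of other-type markers, 14 of 2447 genes were higher and 131 lower, and all 14 were among the 21, while 7 lost the call: the 4 haemoglobin genes, Car2, Sidt1 and Nsg2. Asking also that the counting interval leave out 1-fold and that each suffix with 20 or more cells of both groups point the same way left 16 genes higher (0.625%) and 124 lower (4.84%). Against the 211 T cells with a Cd4 or Foxp3 UMI and no Cd79a UMI, 32 of 2474 genes were 2-fold higher and 93 lower, of which 15 and 37 were shared with the lists above. Higher genes were then 25.6% of those past 2-fold, against 12.1% with all other T cells. The 32 include the 4 haemoglobin genes, S100a8 and S100a9, whose UMIs in CD8 T cells lie mostly in the pair of barcodes above.

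**Figure D2:**
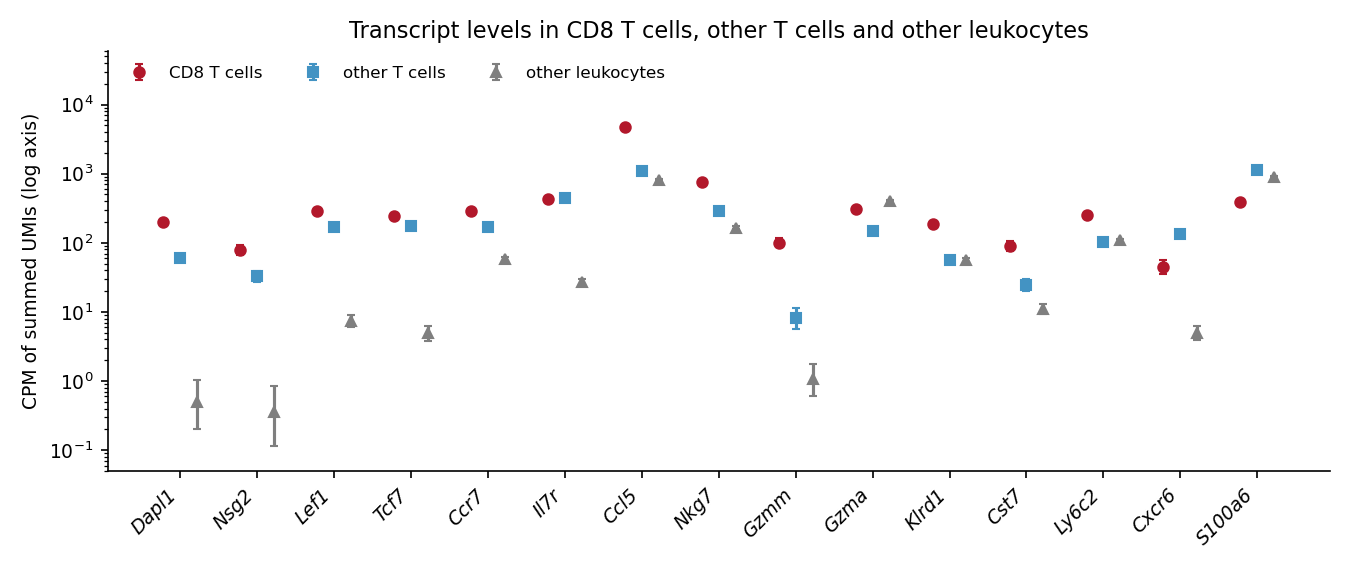
Summed level in CPM on a log axis of 15 genes in CD8 T cells, other T cells and other leukocytes; bars are exact Poisson 95% intervals, which cover counting error only. Gzmm, Ccl5, Nkg7 and Dapl1 stand above the other groups in CD8 T cells, while Il7r lies at the same level in CD8 and other T cells.

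Dapl1 (chr2:59484653-59505020, plus strand), whose protein is known as death associated protein-like 1, was the marker that set CD8 T cells most apart among the naive genes. It was at 178, 253, 270, 87.8, 187 and 144 CPM in CD8 T cells of suffixes 1 to 6, against 76.1, 82.8, 45.3, 43.4, 63.4 and 38.9 CPM in other T cells. Under every suffix CD8 T cells were higher, and the lowest CD8 value, at suffix 4, was above the highest of the other T cells. Suffix 4 held only 16 CD8 T cells, and with these thinned to 1000 UMIs a Dapl1 UMI was seen in 0 of 16. The gap between 87.8 and 82.8 CPM is thus not firm. Pooled, Dapl1 was at 199 CPM in CD8 T cells against 60.6 CPM in other T cells (log2 ratio 1.57; without the added 10 CPM the counting interval is 1.48 to 1.96). Dapl1 was at 0.502 CPM in other leukocytes, where Poisson counting error alone is large. Lef1 and Tcf7 were higher by less than 2-fold: Lef1 was at 291 CPM in CD8 T cells and 170 CPM in other T cells (log2 ratio 0.74), and Tcf7 at 246 CPM in CD8 T cells and 173 CPM in other T cells (0.48).

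The naive and central memory list held 23 genes, of which 19 were measured. Of these, 2 (Dapl1 and Nsg2) were 2-fold higher and 0 were 2-fold lower in CD8 T cells, and 14 were above and 5 below 1-fold. Over all measured genes 0.82% were 2-fold higher. The call of Nsg2 did not hold under 2 other settings: its log2 ratio was 0.99 without the cells with other-type markers and 0.55 against T cells with Cd4 or Foxp3. Its median log2 ratio was 0.32, against -0.28 for all measured genes. Ccr7, the lymph node homing receptor, was at 286 CPM in CD8 T cells and 170 CPM in other T cells. All 14 of the genes above 1-fold except Dapl1 and Nsg2 thus differed by less than 2-fold. Klf2, which keeps T cells circulating, was at 864 CPM in CD8 T cells and 650 CPM in other T cells. Il7r, the interleukin 7 receptor, was at 435 CPM in CD8 T cells and 449 CPM in other T cells, and S1pr1, the receptor that lets T cells leave lymph nodes, at 220 CPM in CD8 T cells and 223 CPM in other T cells. Il7r and S1pr1 thus lay at like levels in CD8 and other T cells, and the highest ratio of the list was that of Dapl1. Against T cells with Cd4 or Foxp3 the log2 ratios were 0.03 for Klf2, 0.45 for Ccr7, 0.49 for Il7r and -0.53 for S1pr1.

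Killer genes gave the highest ratios after haemoglobin. Gzmm (chr10:79689020-79695261, plus strand), a granzyme, was at 164, 56.3, 62.4, 17.6, 120 and 164 CPM in CD8 T cells of suffixes 1 to 6, against 9.51, 4.48, 0, 2.90, 12.8 and 11.8 CPM in other T cells. These values did not overlap, but the lowest CD8 value, 17.6 CPM at suffix 4, came from only 16 cells. With those cells thinned to 1000 UMIs, a Gzmm UMI was seen in 0 of 16. The gap between 17.6 and 12.8 CPM is thus not firm, and the share of all genes with such a gap is not given. Pooled, Gzmm was at 100 CPM in CD8 T cells and 8.14 CPM in other T cells (log2 ratio 2.60), and a UMI was seen in 18.5% of CD8 T cells. Ccl5 (chr11:83525778-83530518, minus strand), a chemokine that draws T cells and monocytes, was at 4764 CPM in CD8 T cells and 1087 CPM in other T cells (log2 ratio 2.12). Nkg7 (chr7:43437073-43438249, plus strand), a protein of cytotoxic granules, was at 764 CPM in CD8 T cells and 289 CPM in other T cells (log2 ratio 1.37). Ccl5 reached 999.1 to 7409 CPM under the suffixes in CD8 T cells, against 330 to 1821 CPM in other T cells, and was higher in CD8 T cells under each suffix.

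The cytotoxic and effector list held 25 genes, of which 11 were measured. In CD8 T cells 4 of them (Gzmm, Nkg7, Ccl5 and Cst7) were 2-fold higher and 0 were 2-fold lower, with a median log2 ratio of 0.91. Over all measured genes 0.82% were 2-fold higher, with a median of -0.28. Gzmm and Cst7 were under 50 CPM in other T cells. They were measured only through CD8 T cells, so the filter favoured a higher call. Leaving out 1 suffix at a time gave medians of 0.38 (without suffix 6) to 1.09 (without suffix 5). Under suffixes 1 and 2 the same median was 0 and -0.14, and under suffixes 3, 5 and 6 it was 1.20, 0.78 and 1.20. Cst7, a cystatin that restrains granzyme processing, was at 90.7 CPM in CD8 T cells and 24.9 CPM in other T cells. Gzma was at 306 CPM in CD8 T cells and 149 CPM in other T cells, but 10 cells held 74.0% of its UMIs in CD8 T cells and it was seen in 38 cells. Natural killer cells stood far above both, with Ccl5 at 15524 CPM and Gzma at 7947 CPM. Prf1, perforin, was at 6.68 CPM in CD8 T cells and 1.44 CPM in other T cells, below the level needed to be measured.

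Promoter sequence is shown for Dapl1 and for 4 killer or memory genes with a higher summed level in CD8 T cells than in other T cells. Of the 4, Gzma was not past 2-fold. The sequences let the reader see the stretch around each start site. RefSeq promoters on GRCm38.p6 were found for 8 of the 13 symbols looked up, each a window of 300 bases printed 5′ to 3′ on the gene's strand. Both strands were searched for the TCF/LEF core CTTTGA (read TCAAAG on the other strand), the RUNX core TGTGGT (read ACCACA) and the T-box core TCACAC (read GTGTGA). Capitals mark the matches, and none of them overlap. RUNX3 and T-box factors are known regulators of CD8 effector genes, and TCF/LEF factors of naive genes. Over all 32851 promoters of this length, 16.0% hold the TCF/LEF core, 16.8% the RUNX core and 14.5% the T-box core. A match describes letters, not binding.
Nkg7, chr7:43436888-43437187, plus strand: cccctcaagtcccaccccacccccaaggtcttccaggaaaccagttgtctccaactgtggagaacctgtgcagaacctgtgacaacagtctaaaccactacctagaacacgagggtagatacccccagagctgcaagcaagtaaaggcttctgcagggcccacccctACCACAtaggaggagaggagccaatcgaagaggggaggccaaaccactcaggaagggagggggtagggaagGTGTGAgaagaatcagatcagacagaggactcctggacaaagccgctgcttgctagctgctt
Gzmm, the first of 2 starts, chr10:79688770-79689069, plus strand: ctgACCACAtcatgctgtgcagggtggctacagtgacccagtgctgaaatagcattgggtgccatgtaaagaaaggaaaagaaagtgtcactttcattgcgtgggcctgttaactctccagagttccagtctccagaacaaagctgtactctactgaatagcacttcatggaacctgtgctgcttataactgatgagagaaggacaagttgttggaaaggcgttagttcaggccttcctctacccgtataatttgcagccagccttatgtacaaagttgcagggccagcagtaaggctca
Gzma, chr13:113100932-113101231, minus strand: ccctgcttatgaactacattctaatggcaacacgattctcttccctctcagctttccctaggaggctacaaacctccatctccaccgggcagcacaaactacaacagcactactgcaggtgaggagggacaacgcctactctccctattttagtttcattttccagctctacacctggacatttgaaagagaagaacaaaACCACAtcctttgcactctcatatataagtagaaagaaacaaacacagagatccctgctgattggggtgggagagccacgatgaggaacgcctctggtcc
Ly6c2, the first of 2 starts, chr15:75111922-75112221, minus strand: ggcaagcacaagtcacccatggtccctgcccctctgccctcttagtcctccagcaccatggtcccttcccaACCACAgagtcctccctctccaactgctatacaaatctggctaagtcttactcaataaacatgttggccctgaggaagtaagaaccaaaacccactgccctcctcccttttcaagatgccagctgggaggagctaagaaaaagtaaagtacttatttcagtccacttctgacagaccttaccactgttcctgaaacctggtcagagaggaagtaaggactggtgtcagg
Dapl1, chr2:59484403-59484702, plus strand: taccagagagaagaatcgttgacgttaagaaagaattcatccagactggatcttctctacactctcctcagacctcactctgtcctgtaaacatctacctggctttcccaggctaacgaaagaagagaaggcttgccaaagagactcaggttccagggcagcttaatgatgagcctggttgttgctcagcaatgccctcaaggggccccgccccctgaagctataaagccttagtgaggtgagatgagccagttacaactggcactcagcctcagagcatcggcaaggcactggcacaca
Each of the first 4 holds the RUNX core as ACCACA, starting at -83 in Nkg7, -247 in Gzmm, -50 in Gzma and -179 in Ly6c2, counted from the start site, and Nkg7 also holds GTGTGA at -12. The second Gzmm start holds 0 RUNX cores and 2 T-box cores. The Dapl1 window holds none of the 3 cores, nor do those of Tcf7 and Cd8a, and of 4 Lef1 starts the last holds TCAAAG 2 times.

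Receptors shared with natural killer cells split in direction. Klrd1, the CD94 chain, was at 186 CPM in CD8 T cells and 57.2 CPM in other T cells (log2 ratio 1.55), and Klrk1, the NKG2D receptor, at 119 CPM in CD8 T cells and 84.1 CPM in other T cells. Tyrobp and Fcer1g, signalling adaptors of innate cells, were lower in CD8 T cells at 247 and 128 CPM, against 551 and 280 CPM in other T cells. Of 4 measured genes of 20 in the list, 1 was 2-fold higher and 2 were 2-fold lower. Against T cells with Cd4 or Foxp3 the log2 ratios of Tyrobp and Fcer1g were -0.034 and -0.020. Summed natural killer markers were at 763 CPM in CD8 T cells and 1071 CPM in other T cells, and their part in this was not tested.

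Ly6c2, a surface marker of memory and interferon-exposed CD8 T cells in mice, was the exception in the memory and activation list. It was at 206, 145, 270, 158, 293 and 365 CPM in CD8 T cells of suffixes 1 to 6, against 76.1, 61.6, 81.8, 17.4, 87.8 and 281 CPM in other T cells, and was higher under each suffix. The list held 20 genes, 16 of them measured, of which 1 was 2-fold higher (Ly6c2) and 4 were 2-fold lower (Cd44, Anxa1, S100a4 and S100a6), with a median log2 ratio of -0.69. Over all measured genes 5.97% were 2-fold lower, with a median of -0.28. Anxa1, at 22.3 CPM in CD8 T cells, was measured only through the other T cells. S100a6, a calcium-binding protein of activated cells, was at 392 CPM in CD8 T cells and 1124 CPM in other T cells (log2 ratio -1.49). Cd44, the hyaluronan receptor, was at 117 CPM in CD8 T cells and 272 CPM in other T cells, and its log2 ratio was -0.23 against T cells with Cd4 or Foxp3. S100a6 was lower in CD8 T cells under each suffix, at 174 to 983 CPM, against 898 to 1254 CPM in other T cells.

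The few measured tissue residency genes were lower too. Of 12 listed genes 4 were measured and 3 of them were 2-fold lower in CD8 T cells. Over all measured genes 5.97% were 2-fold lower, with a median of -0.28. Cxcr6, a chemokine receptor of lung-resident lymphocytes, was at 45.1 CPM in CD8 T cells and 135 CPM in other T cells (log2 ratio -1.39). It was thus measured only through the other T cells. Against the 211 T cells with a Cd4 or Foxp3 UMI in place of all other T cells its log2 ratio was 0.31. Rgs1 and Rgs2, brakes on chemokine receptor signals, were at 54.5 and 56.2 CPM in CD8 T cells, against 122 and 176 CPM in other T cells. Itgae, the CD103 integrin of resident cells, had a UMI in 6.57% of CD8 T cells and 5.49% of other T cells. With cells thinned to 1000 UMIs, the Itgae shares were 1.17% of CD8 T cells and 2.08% of other T cells. Zfp683, the Hobit factor, had a UMI in 0.235% of CD8 T cells.

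Genes of helper and regulatory T cells were lower in CD8 T cells; the rule removed Cd4 and Foxp3, so this list is not independent of it. Of 8 measured genes in that list, 6 were 2-fold lower and 0 higher, with a median log2 ratio of -2.06. Over all measured genes 5.97% were 2-fold lower. All 6 were under 50 CPM in CD8 T cells, so they were measured only through the other T cells. The filter thus favoured a lower call, and the count is no support of its own. Ikzf2, the Helios factor of regulatory T cells, was at 18.4 CPM in CD8 T cells and 181 CPM in other T cells. Ctla4, an inhibitory receptor, was at 5.57 CPM in CD8 T cells and 68.3 CPM in other T cells, and Cd40lg, the helper signal to B cells, at 6.12 CPM in CD8 T cells and 63.0 CPM in other T cells. Maf, a factor of helper and innate-like T cells, was at 11.1 CPM in CD8 T cells and 161 CPM in other T cells, where 332 cells held it. These genes came from many other T cells, unlike Jchain, of which 1 other T cell held 64.5%, and Sftpc, of which 1 held 50.8%.

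**Figure D3:**
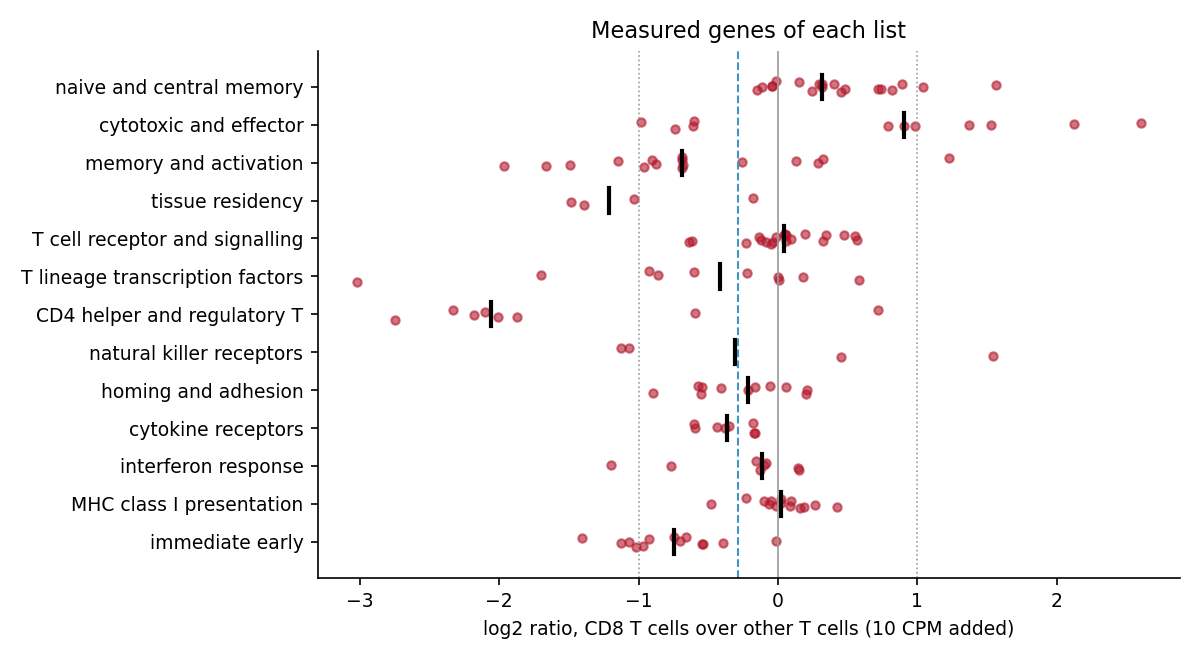
For each gene list, each measured gene's log2 ratio of CD8 T cells over other T cells (10 CPM added), with the list median as a black line and the median of all measured genes, -0.28, as a dashed line. The cytotoxic list has a median of 0.91, or 0.38 to 1.09 when 1 suffix at a time is left out, and the helper and regulatory list a median of -2.06.

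Genes that all T cells use were near 1-fold. In the T cell receptor and signalling list 0 of 20 measured genes were 2-fold higher and 0 lower, with a median of 0.04. That median changes sign with the setting: it was -0.07 as a mean over cells, -0.44 against T cells with Cd4 or Foxp3 and -0.13 without the cells with other-type markers. Lck, the kinase that binds CD8, was at 294 CPM in CD8 T cells and 256 CPM in other T cells. Among the T lineage transcription factors, 2 of 10 were 2-fold lower, Rora and Maf. Both were under 50 CPM in CD8 T cells, so they were measured only through the other T cells. Runx3, the factor that holds the CD8 fate, was at 151 CPM in CD8 T cells and 98.0 CPM in other T cells (log2 ratio 0.58). In the lists for MHC class I, homing and cytokine receptors, 0 of 14, 0 of 11 and 0 of 8 measured genes were 2-fold higher or lower. Inhibitory receptors were nearly all below the level to be measured: Pdcd1 was seen in 2 CD8 T cells, Lag3 in 6, Havcr2 in 10 and Tigit in 0. The T cell receptor chains themselves were not analysed here.

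Immediate early genes, which cells turn on within minutes of a stimulus or of being handled, were lower in CD8 T cells in all 13 measured cases, of which 4 (Fos, Egr1, Dusp1 and Nr4a1) were 2-fold lower. Fos was at 195 CPM in CD8 T cells and 420 CPM in other T cells, and Nr4a1, a readout of T cell receptor signals, at 27.8 CPM in CD8 T cells and 66.6 CPM in other T cells. The list median was -0.75, against -0.28 for all measured genes, of which 5.97% were 2-fold lower. Nr4a1 was under 50 CPM in CD8 T cells, so it was measured only through the other T cells. Against T cells with Cd4 or Foxp3 none of the 4 was 2-fold lower, with log2 ratios of -0.19 for Fos, -0.11 for Egr1, -0.76 for Dusp1 and -0.38 for Nr4a1. Without the cells with other-type markers Fos (-0.77) and Nr4a1 (-0.97) lost the call, and Egr1 (-1.38) and Dusp1 (-1.34) kept it.

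Against other leukocytes, which include B cells and macrophages, genes of the T cell program were higher in CD8 T cells. Cells with a CD3 UMI were left out of the other leukocytes, so this follows from how the groups were chosen. Of 3051 measured genes 185 (6.06%) were 2-fold higher in CD8 T cells and 851 (27.9%) were 2-fold lower, with a median of -0.46, and 177 (5.8%) and 799 (26.2%) also pointed the same way under each suffix compared. Dapl1 was at 199 CPM in CD8 T cells and 0.502 CPM in other leukocytes (log2 ratio 4.32), Lef1 at 291 CPM, against 7.39 CPM in other leukocytes, and Tcf7 at 246 CPM, against 4.88 CPM in other leukocytes. The signalling list had 17 of 20 measured genes 2-fold higher, with a median of 2.63, led by Cd28, a costimulatory receptor, at 226 CPM in CD8 T cells and 4.66 CPM in other leukocytes. In the naive list 14 of 20 were 2-fold higher. Dapl1, Lef1, Tcf7 and Cd28 were under 50 CPM in other leukocytes. They were measured only through CD8 T cells and had to be called higher, so these counts are no support of their own. Genes lower in CD8 T cells included Ebf1, a B cell factor, at 8.91 CPM in CD8 T cells and 445 CPM in other leukocytes. Apoe, a lipid carrier made by macrophages, was at 62.3 CPM in CD8 T cells and 934 CPM in other leukocytes. In the MHC class I list 3 of 13 were 2-fold higher, H2-Q4, H2-Q6 and H2-Q7, the last at 432 CPM in CD8 T cells and 75.1 CPM in other leukocytes.

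Per cell, with each cell thinned to 1000 UMIs so that depth is the same, Ccl5 was seen in 37.3% of CD8 T cells, 18.4% of other T cells, 14.9% of T cells with Cd4 and 2.63% of B cells, which should lack it. Without thinning the share in CD8 T cells was 46.0%. Thinned Nkg7 was at 43.0% of CD8 T cells, 16.9% of other T cells and 0.74% of B cells, and unthinned at 76.8% of CD8 T cells. Dapl1 was at 17.1% of CD8 T cells, 5.60% of other T cells and 0 of 1751 B cells, where the upper bound of the interval is 0.210%. Lef1 gave 24.9% in CD8 T cells, 17.0% in other T cells and 24.6% in T cells with Cd4, and Tcf7 25.1% in CD8 T cells, 16.4% in other T cells and 29.1% in T cells with Cd4. For Lef1 and Tcf7 the intervals of CD8 T cells and T cells with Cd4 overlapped. Dapl1 and Nkg7 were at 6.72 and 13.4% in T cells with Cd4.

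**Figure D4:**
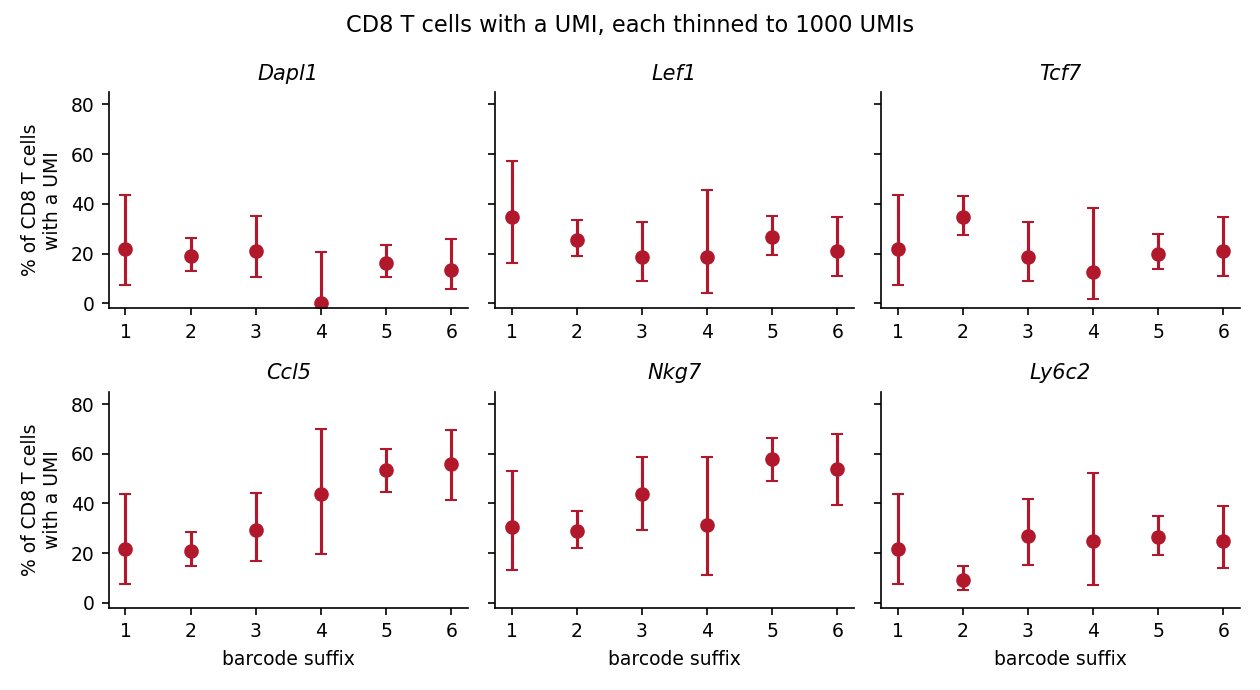
Percent of CD8 T cells with a UMI of 6 genes under each barcode suffix, each cell thinned to 1000 UMIs; bars are 95% Clopper-Pearson intervals. Ccl5 lies between 21.1 and 29.2% under suffixes 1 to 3 and between 43.8 and 55.8% under suffixes 4 to 6.

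The thinned share with Ccl5 was 21.7, 21.1, 29.2, 43.8, 53.3 and 55.8% for suffixes 1 to 6. The intervals of suffix 2 (14.9 to 28.4%) and suffix 5 (44.6 to 62.0%) did not overlap. Nkg7 was at 28.9% under suffix 2 and 57.8% under suffix 5. Tcf7 ran the other way between these parts, with 34.9% under suffix 2 (27.3 to 43.0%) and 27 of 135 cells under suffix 5 (13.6 to 27.7%), and these intervals overlap slightly. The suffixes with the higher Ccl5 share are those whose cells hold Xist, and their cells are deeper before thinning. The part that sex, depth, day or gate has in this was not tested, and day and gate cannot be told apart from the suffix.

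Among CD8 T cells Ccl5 was spread unevenly: 230 held none (54.0%), 39 held 1 to 4 UMIs, 99 held 5 to 49 and 58 held 50 or more, with a highest value of 500. Splitting them by any Ccl5 or Nkg7 UMI gave 341 cells with and 85 without, at median depths of 3878 UMIs in the 341 and 2438 UMIs in the 85. Of 2230 measured genes 74 (3.32%) were 2-fold higher in the 341 and 75 (3.36%) were 2-fold lower, with Ccl5 and Nkg7 left aside. In the cytotoxic list 5 of 9 measured genes were 2-fold higher and 0 lower. Gzmm was at 117 CPM in cells with Ccl5 or Nkg7 and at 0 in the 85 cells, and Gzma was at 357 CPM in the 341 cells and 3.83 CPM in the 85. These granzymes were at or near 0 in the cells with neither, so they were measured only through the 341 cells and had to be called higher. Of 16 measured memory genes 4 were 2-fold higher and 1 was 2-fold lower, with Ly6c2 at 290 CPM in the 341 cells and 38.3 CPM in the 85. Ly6c2 too was measured only through the 341 cells, so the filter favoured a higher call. In the naive list 0 of 20 were past 2-fold. Markers of other types differed too, and the red cell and neutrophil barcodes are both among the 85: Hbb-bs was at 25.4 CPM in the 341 cells and 13704.5 CPM in the 85, S100a8 at 31.9 CPM in the 341 and 2574 CPM in the 85, and Cd74 at 725 CPM in the 341 and 2375 CPM in the 85. Lyz2 ran the other way, at 1077 CPM in the 341 cells and 387 CPM in the 85. Without the cells with other-type markers, 325 cells with Ccl5 or Nkg7 and 82 with neither were left. Then 63 of 2188 genes were 2-fold higher (2.88%) and 58 lower (2.65%), with 4 of 8 cytotoxic and 7 of 15 memory genes higher, and Gzmm was at 131 CPM in the 325 cells and 0 in the 82. Of the memory genes called higher, Ly6c2, Il2rb, Anxa2 and Lgals3 were under 50 CPM in the 82 cells. They were measured only through the 325.

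A split chosen after the data were seen, 5 or more Ccl5 UMIs (157 cells, 36.9%) against none (230 cells), gave 52 of 2158 genes 2-fold higher (2.41%) and 47 lower (2.18%). Median depth was 4606 UMIs in cells with 5 or more and 2950.5 UMIs in cells with none. As a background, 5 or more Ccl5 UMIs were found in 85.4% of natural killer cells, 13.7% of other T cells and 0.617% of B cells. In cells with 5 or more Ccl5 UMIs 8 of 13 cytotoxic genes and 7 of 17 memory genes were 2-fold higher, and 0 were lower. The filter of 50 CPM in 1 of the 2 groups fixed part of these counts. Gzmm, Gzmk, Eomes and Cxcr3 reached 50 CPM only in cells with 5 or more, and so had to be called higher. The same holds for Klrk1 and Klrc1 of the natural killer list. In cells with none, Gzma was at 3.34 CPM within suffix 2 and 12.1 CPM within suffix 5. Gzmb was at 3.34 and 4.03 CPM and Il2rb at 20.1 and 32.3 CPM in these cells. The counts are thus no support of their own. Gzmm was at 212 CPM in cells with 5 or more and 5.98 CPM in cells with none, Klrk1 at 267 CPM in cells with 5 or more and 7.17 CPM in cells with none, and Ly6c2 at 436 CPM in cells with 5 or more and 116 CPM in cells with none. Gzmk was at 71.0 CPM in cells with 5 or more and at 0 UMIs in the 230, which is at least 19.8-fold higher when 3 UMIs are allowed for over the group, and Klrc1 likewise at least 20.2-fold higher. Suffix 5 gave 73 of the 157 cells and suffix 2 gave 111 of the 230, and within suffix 2 Gzmk was at 0 in both. Within suffix 5 Gzmk was at 54.4 CPM in cells with 5 or more and 0 in cells with none. Eomes, a T-box factor of memory cells, was at 71.0 CPM in cells with 5 or more and 8.37 CPM in cells with none. Cxcr3, a receptor for homing to inflamed tissue, was at 69.7 CPM in cells with 5 or more and 10.8 CPM in cells with none.

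**Figure D5:**
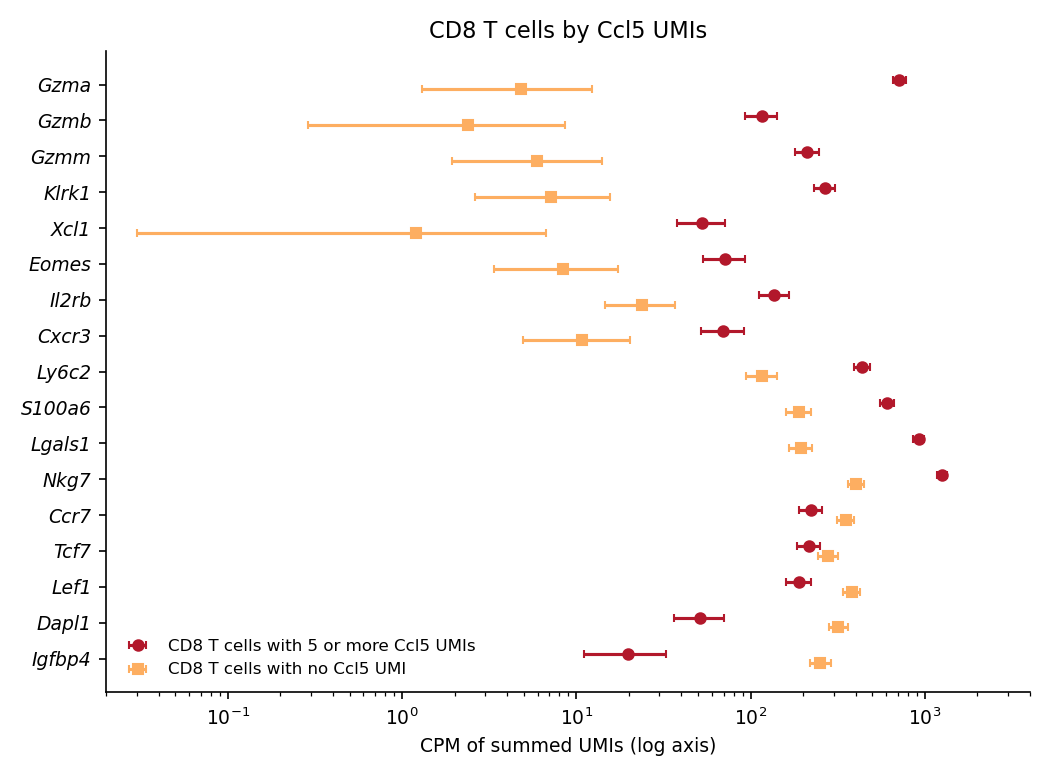
Level in CPM on a log axis of genes of the cytotoxic, memory, natural killer and naive lists in CD8 T cells with 5 or more Ccl5 UMIs beside CD8 T cells with none; bars are exact Poisson 95% intervals. Gzma, Gzmm and Klrk1 stand higher and Dapl1 and Igfbp4 lower in cells with 5 or more Ccl5 UMIs.

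The naive genes divided inside the Ccl5 split. Dapl1 was at 51.3 CPM in cells with 5 or more Ccl5 UMIs and 319 CPM in cells with none, and Igfbp4 at 19.7 CPM in cells with 5 or more and 251 CPM in cells with none. Tcf7 was at 216 CPM in cells with 5 or more and 280 CPM in cells with none. In all, 0 of 20 naive genes were 2-fold higher and 3 lower. Igfbp4 was under 50 CPM in cells with 5 or more, so it was measured only through the cells with none. Without the cells with other-type markers, 61 of 2112 genes were 2-fold higher and 36 lower (2.89 and 1.7%), and 5 of 20 naive genes were lower, Lef1 among them at 194 CPM in cells with 5 or more and 418 CPM in cells with none. Within suffix 2, which held 27 cells with 5 or more and 111 with none, Dapl1 was at 56.2 CPM in cells with 5 or more and 304 CPM in cells with none. Within suffix 5, which held 73 cells with 5 or more and 47 with none, it was at 51.8 CPM in cells with 5 or more and 351 CPM in cells with none, and Gzmm at 220 CPM in cells with 5 or more and 8.07 CPM in cells with none there. In thinned cells a Dapl1 UMI was seen in 7 of the 159 cells with a Ccl5 UMI and 66 of the 267 with none.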

How the data were processed

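Single lung cells were profiled by droplet sequencing with UMIs, and the deposited values are raw UMI counts (27998 genes by 10410 barcodes, 35262820 UMIs), not normalized by the authors. Cell Ranger 1.3.0, STAR 2.5.1 and the mm10 genome are named per the submitters' processing notes, and the cell calling step is not given in the sources used. Cells of all 6 labelled samples stand in 1 table, and barcode suffixes, which no label ties to a sample, are used only as parts of the table and not as replicates. The planned day and gate comparisons were therefore not made.

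Kept were the 9994 barcodes in which 500 or more genes were seen and mitochondrial UMIs made up at most 10%. CD8 T cells followed the rule given at the start of the results. UMIs were summed per group and scaled to CPM by its total, and genes at 50 CPM or more in 1 of the 2 groups were compared by the log2 ratio with 10 CPM added, with 2-fold as the threshold and exact binomial, Poisson or Clopper-Pearson intervals at 95% (counting error only). The genes of the rule were left out of all counts. For shares of cells each cell was thinned to 1000 UMIs with a fixed seed, which left out 22 other T cells and 0 CD8 T cells. With 1 pooled sample there is no test. The ratio script was tested on simulated data.

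Doublets were not removed. Scrublet, run within each suffix, marked 75 of the kept barcodes (0.750%), 2 of them CD8 T cells, and was used only as an alternative. Genes named are those of the gene lists and, for each comparison, the 15 highest and 10 lowest ratios past 2-fold with the same direction under each suffix that held 20 or more cells of both groups. Others were named after their values were seen. The CD8 T cells, the lists and the rules were chosen with earlier results of these data known. Gene positions are from GENCODE M21 on GRCm38 and promoters from RefSeq on GRCm38.p6. Python 3.11.15, NumPy 2.4.6, SciPy 1.17.1, pandas 2.3.3 and Scanpy 1.11.5 were used. Alternatives changed the barcode filter, the class rule, the scaling, the CPM minimum, the added CPM, the groups compared and the suffixes included. 1 gene of the naive list is not reported here by name.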

Additional observations from a re-analysis of the deposited data

How the results depend on the processing

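No paired analysis was possible because no result comes from a test and no suffix is tied to a sample. Over the alternatives, 436 of 463 shares, counts and list medians stayed within the spread allowed for them. Shares of CD8 T cells with a UMI of a single gene were counted apart. At 1500 UMIs or without thinning, 44 of them left the interval found at 1000 UMIs and 14 stayed in it. Of 2249 single-gene log2 ratios, 2114 stayed within the spread and 4 reversed, all against T cells with a Cd4 or Foxp3 UMI. These were Cxcr6 (to 0.31), Ebf1 (to 0.043), S100a8 (to 2.96) and S100a9 (to 3.47). A single barcode holds 90.2% of the S100a8 and 92.9% of the S100a9 UMIs in CD8 T cells; without it they are at 39.5 and 22.3 CPM, against 42.9 and 19.1 CPM in these T cells. For Cxcr6 and Ebf1 the cause was not tested. The same reference gave 32 higher and 93 lower genes in CD8 T cells.

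With a floor of 1000 genes and a limit of 5% on mitochondrial UMIs, 49.6% of CD8 T cells held 5 or more Ccl5 UMIs, and against other leukocytes the medians of the T lineage factors and natural killer receptors were 1.20 and -2.27. Asking for 2 CD3 and 2 CD8 UMIs gave CD8 shares of 3.47% of barcodes and 22.3% of T cells. A minimum of 20 CPM gave 34 higher and 334 lower genes against other T cells, 1424 lower against other leukocytes and a natural killer median of -0.33. A minimum of 100 CPM gave 69 lower against other T cells, 123 higher and 444 lower against other leukocytes, and medians of 1.55 and -2.39 for T lineage factors and natural killer receptors; fewer genes are measured at a higher minimum. Adding 1 CPM gave -2.73 for the helper list against other T cells and 3.75 for the signalling list against other leukocytes, and keeping CD3 positive cells among the leukocytes gave 1.67 for that list.

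Leaving out each suffix in turn gave a CD8 share of 3.42% (without suffix 2) to 5.88% (without suffix 4), and 28.9% (without suffix 5) to 47.4% (without suffix 2) of CD8 T cells with 5 or more Ccl5 UMIs. Against other leukocytes the T lineage median ran between 0.51 and 1.16 and the natural killer median between -2.35 and -1.66, each moved most by suffix 5. Without suffix 6 the Hbb-bs log2 ratio against other T cells was 0.16. Without cells with other-type markers the cytotoxic median between CD8 T cells with and without Ccl5 or Nkg7 was 1.44. The Ccl5 split and the removal of cells with other-type markers were chosen after seeing the data. Depth limits genes under 50 CPM, of which most of the inhibitory receptors are examples.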

Other observations

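Cycling CD8 T cells were few. A UMI of Mki67 or Top2a, genes of dividing cells, was seen in 16 of 426 CD8 T cells (3.76%, 95% Clopper-Pearson interval 2.16 to 6.03%) and in 63 other T cells (5.58%). At least 3 such UMIs were held by 5 CD8 T cells, 4 of them under suffix 6, and by 21 other T cells. Among CD8 T cells with 5 or more Ccl5 UMIs the share was 6.37% (10 of 157), against 2.17% (5 of 230) in those with none, and the intervals overlap. Of 8 measured interferon response genes, 0 were 2-fold higher and 1 was 2-fold lower in CD8 T cells than in other T cells: Ifi27l2a, an interferon-induced gene, was at 238 CPM in CD8 T cells and 560 CPM in other T cells (log2 ratio -1.20), and at 1027 CPM in T cells with Cd4.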
